A study of Mus musculus with 8 samples.

Results

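The genes described here are 7 that are grouped as fetal and immature liver genes: Afp, Ly6d, Gpc3, H19, Igf2, Bex1 and Dlk1. They were chosen by their log2 differences between the genotypes on these same arrays, so those differences are given as a description. A place in liver development also entered the choice, which for Ly6d and Bex1 was not examined here. Every probe set that the platform annotation pairs with exactly 1 of them was taken. This gave 12 of the 22690 probe sets of the array. Of these, 11 are paired with a single gene and stand for 6 of the 7 genes, among 12393 genes with such a probe set. The remaining probe set is paired with both H19 and Mir675, the microRNA gene that lies inside H19, and is called the H19 and Mir675 probe set here. The livers came from female mice, 4 weeks old, on a C57BL/6J background, 4 labelled TrxR1/Gsr-null and 4 labelled WT, with 1 Affymetrix 3′ array per biological replicate and no treatment listed. TrxR1 is the thioredoxin reductase of the cytosol (gene Txnrd1), and Gsr reduces oxidized glutathione. The labels do not give how or in which cells the genes were inactivated, or which exons were removed.

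The rise and fall of Afp, Igf2, H19, Gpc3 and Dlk1 marks liver development. Fetal hepatocytes secrete alpha-fetoprotein, the product of Afp, and growth-promoting Igf2, and carry the glypican Gpc3 and the transmembrane protein Dlk1. H19 is a noncoding RNA that is expressed from the maternal chromosome beside the paternally expressed Igf2. In mouse liver Afp, H19 and Gpc3 are silenced after birth, and Afp, Gpc3 and Dlk1 are used as markers of hepatoblasts, regenerating liver or liver tumours. Ly6d encodes a GPI-anchored surface protein of the Ly6 family best known from keratinocytes and early B lineage cells, and Bex1 a small protein of the brain-expressed X-linked family.

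Among the 4 of these genes that could be tested, Ly6d, Bex1, Afp and Gpc3 were higher in TrxR1/Gsr-null livers, by between 4.43-fold and 86.8-fold, while the Igf2 and Dlk1 probe sets lay near background in most livers and the H19 and Mir675 probe set overlapped between the genotypes. Values are log2 expression after GCRMA, differences are TrxR1/Gsr-null minus WT, and folds are powers of 2 of the difference between group means. A log2 value of 3.38, the upper edge of the lowest 40% of genes by mean, is called the low-value limit. In whole liver RNA, more cells that express a gene and more RNA per cell cannot be told apart.

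**Figure D1:**
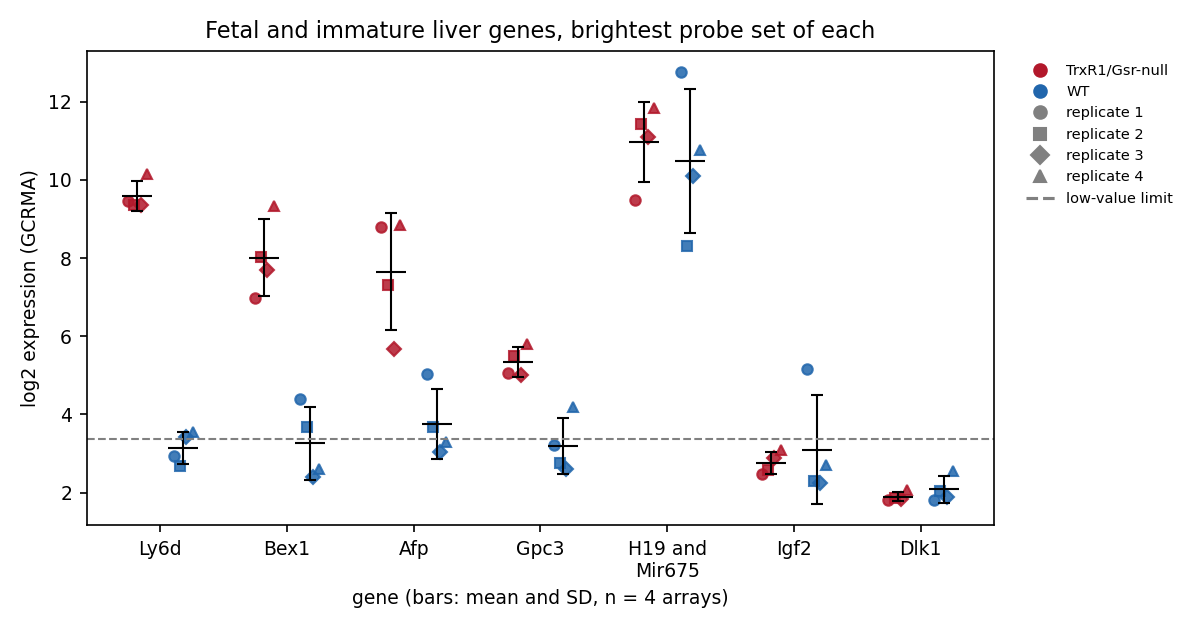
Log2 expression (vertical axis) of the brightest probe set of each gene (horizontal axis) on each array, TrxR1/Gsr-null in red left of WT in blue, with symbols for the replicate number, bars for mean and SD (n = 4) and a dashed line at the low-value limit of 3.38. The genotypes do not overlap for Ly6d, Bex1, Afp and Gpc3 and overlap for H19 and Mir675, Igf2 and Dlk1.

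The promoters of 3 of the higher genes, from 250 bases before to 50 after the annotated start (RefSeq, GRCm38.p6), are shown because these genes were high in the same livers and because the submitters' title names the Nrf2 response. Each is given 5′ to 3′ on the strand of its gene, and capitals mark GTTAAT, the core of the motif of the liver factor HNF1, and the TATA box TATAAA. The Afp promoter lies at chr5:90490464-90490763 on the plus strand, that of Bex1 at chrX:136215464-136215763 on the minus strand and that of Gpc3 at chrX:52613925-52614224 on the minus strand.
Afp: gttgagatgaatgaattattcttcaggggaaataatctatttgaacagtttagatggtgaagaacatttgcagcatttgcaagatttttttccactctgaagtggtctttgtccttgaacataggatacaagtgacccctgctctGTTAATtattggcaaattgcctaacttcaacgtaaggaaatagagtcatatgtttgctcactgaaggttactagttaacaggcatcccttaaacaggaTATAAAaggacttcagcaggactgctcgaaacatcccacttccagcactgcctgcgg
Bex1: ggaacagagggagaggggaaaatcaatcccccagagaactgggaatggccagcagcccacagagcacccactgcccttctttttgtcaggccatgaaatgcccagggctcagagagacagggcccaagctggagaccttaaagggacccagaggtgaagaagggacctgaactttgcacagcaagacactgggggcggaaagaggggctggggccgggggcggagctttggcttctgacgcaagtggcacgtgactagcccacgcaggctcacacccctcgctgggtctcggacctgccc
Gpc3: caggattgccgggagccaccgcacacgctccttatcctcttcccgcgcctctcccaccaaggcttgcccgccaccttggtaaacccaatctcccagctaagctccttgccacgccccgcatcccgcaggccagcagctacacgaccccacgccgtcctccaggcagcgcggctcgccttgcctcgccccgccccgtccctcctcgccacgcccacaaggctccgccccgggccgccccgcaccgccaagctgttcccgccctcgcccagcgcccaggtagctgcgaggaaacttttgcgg
The promoters were unlike in composition. That of Afp held 40% G and C with 3 CpG dinucleotides, that of Bex1 61.3% with 8 and that of Gpc3 70.7% with 30, beside medians of 52.7% and 7 over 32851 promoters. GTTAAT began at base 146 and TATAAA at base 244 of the Afp window, and neither was found in the other 2 windows. On both strands, 7.1% of all promoters held GTTAAT and 13.6% held TATAAA. The core of the antioxidant response element that Nrf2 binds, TGACNNNGC, was in none of these 3 windows. It was in 1 of the 8 windows available for Afp, Bex1, Dlk1, Gpc3 and Igf2, a promoter of Igf2, and in 12.4% of all promoters. No window was used here for Ly6d or H19.

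Across the liver transcriptome, 7534 genes passed the filter on low values, and limma at an adjusted p below 0.05 called 337 of them higher (4.47%) and 162 lower (2.15%). Gsr averaged 6.01 ± 0.22 in TrxR1/Gsr-null and 7.16 ± 0.09 in WT livers (SD, n = 4 each; adjusted p = 0.00397). The Txnrd1 probe set averaged 11.92 ± 0.19 in TrxR1/Gsr-null and 9.82 ± 0.17 in WT livers. It was thus higher in the livers labelled null, and since the removed exons are not given, neither value checks a label. The spread of values was narrower on WT replicates 3 and 4 than on the other arrays (interquartile ranges of 3.97 and 3.74 log2 units, beside 4.31 to 4.44). They and TrxR1/Gsr-null replicate 3 had the larger 3′ over 5′ differences of Actb, a sign of RNA quality (1.498 to 1.76 log2 units, beside 1.01 to 1.17). The same differences of Gapdh overlapped, at -0.35 to -0.23 log2 units on these arrays, beside -0.70 to -0.26 on the others.

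Of the 7 genes, 4 were tested, and all of these were called higher, beside 4.47% of all genes tested. The same 4 had no overlap between the genotypes, beside 10.7% of all genes tested with every TrxR1/Gsr-null value above every WT value. These values entered the choice of the genes, and Ly6d, Bex1 and Gpc3 passed the filter through the TrxR1/Gsr-null arrays, since their WT means lay below the low-value limit, so the counts are a description.

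**Figure D2:**
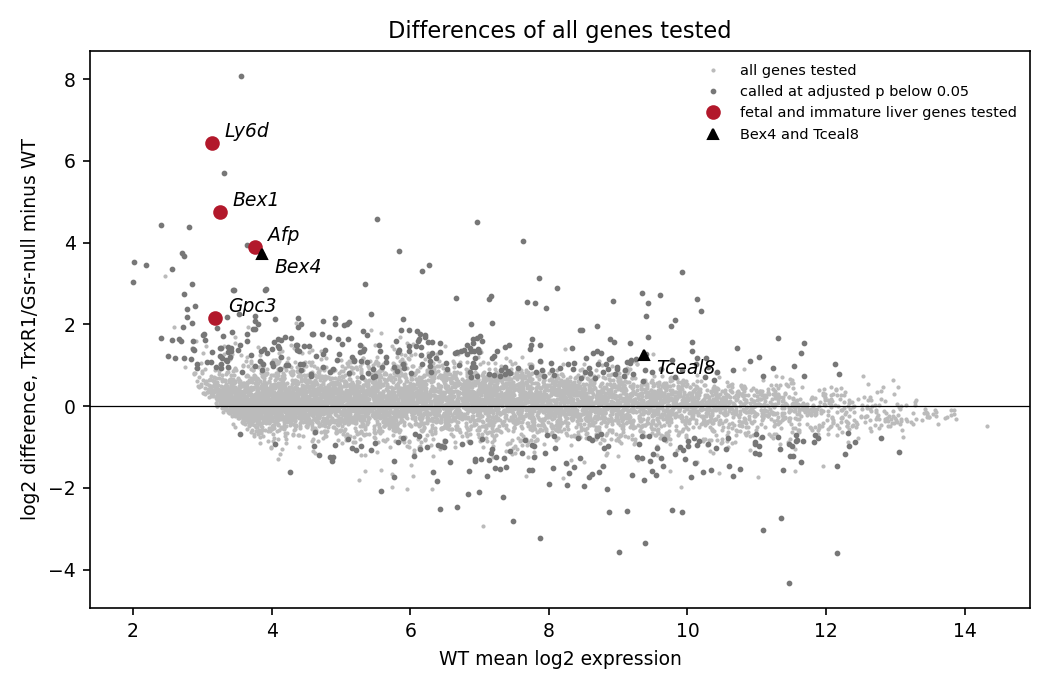
Log2 difference between TrxR1/Gsr-null and WT livers (vertical axis) against the WT mean log2 expression (horizontal axis) for the 7534 genes tested, with called genes in dark grey. Ly6d, Bex1, Afp and Gpc3 in red lie between 2.15 and 6.44 on the vertical axis, at WT means from 3.15 to 3.76, and Bex4 and Tceal8 are marked with triangles.

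Ly6d, the surface protein gene, stood at 9.47, 9.37, 9.36 and 10.14 in TrxR1/Gsr-null replicates 1 to 4, against 2.93, 2.69, 3.42 and 3.55 in WT replicates 1 to 4. The lowest null liver was 5.81 log2 units above the highest WT liver, and the 4 null livers differed from each other by at most 1.72-fold. The difference was 6.44 ± 0.26 (SE) on the log2 scale, 86.8-fold, the second largest rise among all genes tested. Since the WT values lay around the low-value limit, the size of the fold rests on values near background.

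Other genes of the family were mostly low. Of 13 Ly6 and other three-finger protein genes with a probe set, 12 were below the filter, and the tested gene, Cd59a, a complement inhibitor, averaged 7.80 in TrxR1/Gsr-null and 7.94 in WT livers without being called (adjusted p = 0.76). The 6 nearest genes to Ly6d with a probe set, among them Psca, Slurp1, Lynx1 and Ly6i, lay below the low-value limit in both genotypes, with means of 1.73 to 3.24. Ly6d is also a marker of early B lineage cells and plasmacytoid dendritic cells, whose other markers are given here. Of 15 B lineage markers 12 were below the filter, and the first as listed, Cd79a, averaged 2.41 in TrxR1/Gsr-null and 2.34 in WT livers. The 3 tested were not called: Cd72 averaged 3.87 in TrxR1/Gsr-null and 3.54 in WT livers, Cd79b 3.43 and 3.43, and Cd22 3.36 and 3.41. Among those below the filter Blnk averaged 3.10 in TrxR1/Gsr-null and 2.81 in WT livers, and Rag1 1.78 and 2.30. The log2 of the summed B lineage level ranged from 6.58 to 6.85 in TrxR1/Gsr-null and from 6.73 to 6.77 in WT livers. Of 7 plasmacytoid dendritic cell markers 3 were tested and 0 called, 1 of them with an unadjusted p below 0.05, and the replicate block called 1 lower. These 3, which other cells express as well, were above the low-value limit. Tcf4 averaged 7.52 in TrxR1/Gsr-null and 6.42 in WT livers, Bst2 6.14 and 7.0, and Irf8 5.12 and 4.73. The summed level ranged from 7.89 to 8.60 in TrxR1/Gsr-null and from 7.20 to 8.81 in WT livers, and the part of either cell type in the Ly6d values was not tested.

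Bex1 stood at 6.99, 8.02, 7.68 and 9.34 in TrxR1/Gsr-null replicates 1 to 4, against 4.38, 3.67, 2.40 and 2.59 in WT replicates 1 to 4. The groups were 2.61 log2 units apart at their nearest values, with WT replicates 3 and 4 below the low-value limit and replicates 1 and 2 above it. The difference was 4.75 ± 0.54 (SE), 26.9-fold. It was 3.48 within replicates 1 and 2 and 6.02 within replicates 3 and 4, and both the null and the WT values differ between these settings.

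Bex1 lies on the X chromosome in a cluster of Bex genes and of Tceal genes, which resemble a transcription elongation factor, and some of these neighbours were higher too. Of 7 Bex and Tceal genes other than Bex1 with a probe set, 5 were tested. Of these, 2 were called higher and 0 lower, beside 4.47% and 2.15% of all genes tested. All 5 lay above 0, with a median difference of 0.56 beside 0.096 over all genes tested. Bex4 stood at 8.04, 7.57, 7.06 and 7.64 in TrxR1/Gsr-null replicates 1 to 4, against 4.44, 3.87, 2.88 and 4.25 in WT replicates 1 to 4. It rose 13.1-fold (log2 difference 3.72 ± 0.34 SE, adjusted p = 0.000201) and was called under every one of the 20 alternative settings. Bex4 is also an older symbol of Bex1, but the annotation ties this probe set to the gene identifier of the present Bex4. Whether probes of these related genes also bind each other's RNA was not tested.

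Tceal8, next to Bex1, stood at 10.60, 10.56, 10.83 and 10.51 in TrxR1/Gsr-null replicates 1 to 4, against 9.52, 9.28, 9.08 and 9.63 in WT replicates 1 to 4, and rose 2.38-fold (adjusted p = 0.00352). Of its 20 alternatives only the comparison within replicates 3 and 4 did not call it (adjusted p = 0.08). The other tested genes of the cluster were not called. Tceal9 averaged 10.06 in TrxR1/Gsr-null and 9.50 in WT livers (adjusted p = 0.231), Bex3 5.14 and 4.79 (adjusted p = 0.566), and Tceal1 4.56 and 4.12 (adjusted p = 0.214). Bex2 averaged 3.45 in TrxR1/Gsr-null and 2.98 in WT livers and was below the filter.

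**Figure D3:**
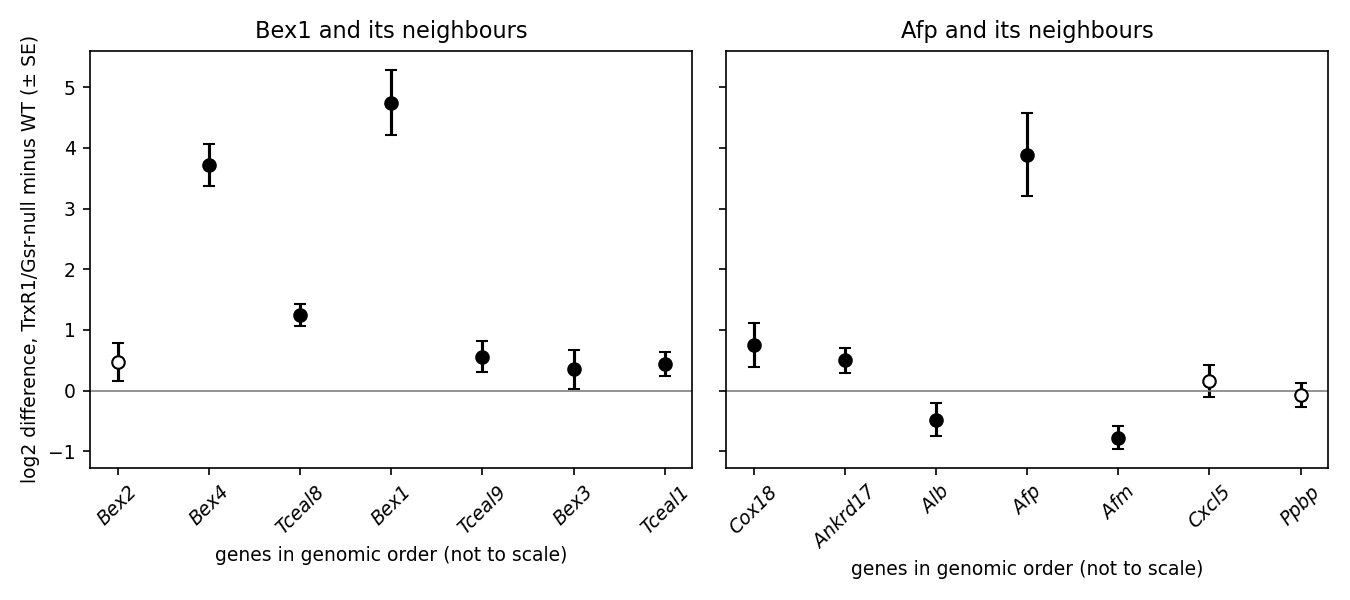
Log2 difference between TrxR1/Gsr-null and WT livers with its SE (vertical axis) for Bex1 and its 6 nearest genes with a probe set (left) and for Afp and its 6 (right), in genomic order and not to scale, with open circles for genes below the filter. Bex4 and Tceal8 lie above 0 beside Bex1, while Alb and Afm, on either side of Afp, lie below 0.

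Afp was measured by 5 probe sets. The brightest stood at 8.78, 7.31, 5.68 and 8.83 in TrxR1/Gsr-null replicates 1 to 4, against 5.04, 3.68, 3.04 and 3.29 in WT replicates 1 to 4. All null livers were above all WT livers, but replicate 3 was only 0.64 log2 units above WT replicate 1. The difference was 3.89 ± 0.68 (SE), 14.8-fold, and leaving out TrxR1/Gsr-null replicate 3 gave 23.4-fold. WT replicates 3 and 4 lay below the low-value limit, so these folds rest in part on values near background.

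The null livers differed among themselves by 8.90-fold at this probe set, and 99.7% of the 12271 probe sets above the low-value limit on average had a smaller SD among the null livers. Replicate 4 was highest, then replicates 1, 2 and 3, at each of the 3 brighter probe sets. The second of these averaged 6.57 ± 0.97 in TrxR1/Gsr-null and 4.58 ± 0.60 in WT livers (SD, n = 4 each), 3.98-fold, and is of a kind (_x_at) that can match several transcripts. The third averaged 5.93 ± 1.23 in TrxR1/Gsr-null and 3.13 ± 0.52 in WT livers, 6.94-fold, with the WT mean below the low-value limit. In the fit over all probe sets the brightest and the third were called higher. The second was not, with 0.24 log2 units between the nearest values of the genotypes. The remaining 2 probe sets were below the low-value limit on all 8 arrays, with means from 2.12 to 2.48, and the difference was 1.74 when all 5 were averaged.

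**Figure D4:**
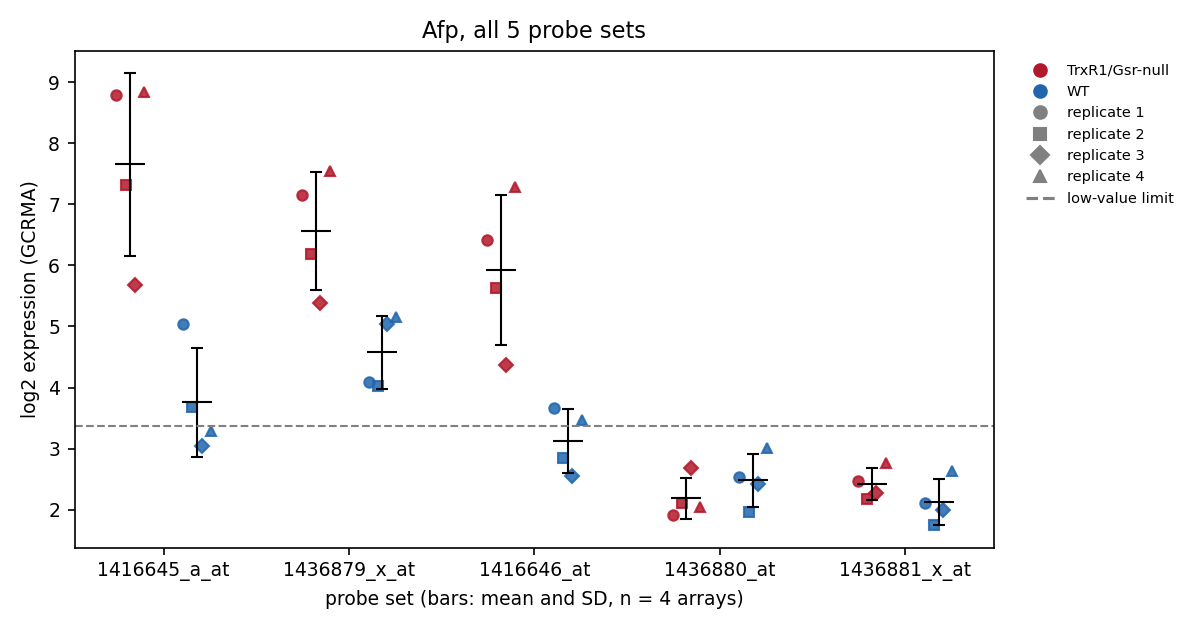
Log2 expression (vertical axis) of the 5 Afp probe sets (horizontal axis) on each array, TrxR1/Gsr-null in red left of WT in blue, with symbols for the replicate number, bars for mean and SD (n = 4) and a dashed line at the low-value limit. At the 3 brighter probe sets the null livers keep the order replicate 4, 1, 2 and 3, and the 2 dimmer ones stay below the limit of 3.38.

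The albumin gene family to which Afp belongs did not rise with it. Alb, the serum albumin gene just before Afp, averaged 13.85 ± 0.49 in TrxR1/Gsr-null and 14.32 ± 0.30 in WT livers (SD, n = 4 each; adjusted p = 0.324). Afm, the vitamin E-binding afamin gene just after it, fell 1.71-fold, to 11.12 ± 0.27 in TrxR1/Gsr-null livers, against 11.89 ± 0.09 in WT livers (SD, n = 4 each; adjusted p = 0.0346). The Afm call was lost when any single array other than TrxR1/Gsr-null replicate 3 was left out.

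Gpc3, a cell surface heparan sulfate proteoglycan, stood at 5.06, 5.48, 5.01 and 5.80 in TrxR1/Gsr-null replicates 1 to 4, against 3.23, 2.75, 2.61 and 4.18 in WT replicates 1 to 4. The groups were 0.83 log2 units apart at their nearest values, and only WT replicate 4 exceeded the low-value limit. The difference was 2.15 ± 0.34 (SE), 4.43-fold. Of 13 other glypican and heparan sulfate proteoglycan genes tested, 1 was called higher and 1 lower, beside 4.47% and 2.15% of all genes tested. Their median difference was -0.45. The gene called higher was Gpc1, another glypican, which rose 3.04-fold to 4.47 ± 0.54 in TrxR1/Gsr-null livers, against 2.86 ± 0.39 in WT livers (SD, n = 4 each; adjusted p = 0.0105). All 4 WT values of Gpc1 lay below the low-value limit, so it passed the filter through the null arrays and its fold is taken over background. Sdc4, a syndecan, averaged 10.25 in TrxR1/Gsr-null and 11.48 in WT livers and was called lower (adjusted p = 0.0315), but not when TrxR1/Gsr-null replicate 2 or any single one of WT replicates 2, 3 and 4 was left out. With the replicate block 5 of these genes were called lower. Gpc4, the gene next to Gpc3, averaged 6.45 in TrxR1/Gsr-null and 7.48 in WT livers without being called (adjusted p = 0.142), the opposite sign to Gpc3.

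The H19 and Mir675 probe set was bright in every liver. It stood at 9.49, 11.43, 11.10 and 11.85 in TrxR1/Gsr-null replicates 1 to 4, against 12.75, 8.31, 10.11 and 10.76 in WT replicates 1 to 4. The groups overlapped, and both the highest and the lowest of the 8 values were WT. The WT livers differed by 21.8-fold, and 99.9% of the 12271 brighter probe sets had a smaller SD among the WT livers. The mean difference was 0.49 ± 0.84 (SE), and it was 1.24 without WT replicate 1 and -0.24 without WT replicate 2, so the data give no direction for it.

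Igf2, the growth factor gene beside H19, was measured by 2 probe sets. The brighter stood at 2.47, 2.58, 2.88 and 3.08 in TrxR1/Gsr-null replicates 1 to 4, against 5.16, 2.30, 2.25 and 2.70 in WT replicates 1 to 4. All values but that of WT replicate 1 were below the low-value limit, and the difference was -0.35 ± 0.57 (SE), and 0.34 without that array. The other Igf2 probe set had group means of 2.11 in TrxR1/Gsr-null and 2.17 in WT livers. Dlk1, the hepatoblast marker, stood between 1.82 and 2.07 in TrxR1/Gsr-null livers and between 1.81 and 2.56 in WT livers, below the low-value limit on all 8 arrays. No change of Igf2 or Dlk1 could be measured at such levels. The Dlk1 neighbours Meg3 and Rian, noncoding RNAs of the same imprinted region, had group means from 2.31 to 3.24.

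Other imprinted genes were mostly not called. Of 12 tested, 1 was called higher and 0 lower, beside 4.47% and 2.15% of all genes tested. Their median difference was 0.18, and the replicate block called 3 higher. Impact, a translational regulator that is imprinted in mouse, was at 6.94, 7.35, 5.62 and 7.80 in TrxR1/Gsr-null replicates 1 to 4, against 5.50, 5.24, 4.69 and 4.25 in WT replicates 1 to 4, and rose 4.02-fold (adjusted p = 0.0256). Impact was not called without any single one of TrxR1/Gsr-null replicates 1, 2 and 4 and WT replicates 3 and 4 (7 of 20 alternatives, adjusted p up to 0.142). Igf2r, the receptor that clears Igf2, averaged 7.22 in TrxR1/Gsr-null and 6.34 in WT livers (adjusted p = 0.0509). Grb10, an adaptor that dampens insulin and Igf signalling, averaged 6.37 in TrxR1/Gsr-null and 5.54 in WT livers (adjusted p = 0.0654).

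Among Igf2 receptors, binding proteins and related signalling genes 0 of 13 were called higher and 3 lower, beside 4.47% and 2.15% of all genes tested. Their median difference was -0.52. The most secure call was that of Igfbp2, which binds Igf2. It fell 6.66-fold, to 7.85, 9.34, 8.91 and 8.35 in TrxR1/Gsr-null replicates 1 to 4, against 12.07, 11.49, 11.44 and 10.38 in WT replicates 1 to 4 (adjusted p = 0.00318), and was called under all of its 19 alternatives. Igfals, which stabilizes circulating Igf complexes, was called lower (2.22-fold, adjusted p = 0.0233), as was the insulin receptor substrate Irs2 (2.37-fold, adjusted p = 0.0356). With the replicate block 4 were called lower and 1 higher, and the 3 calls became 1 without any single one of TrxR1/Gsr-null replicates 1 and 2 and WT replicates 3 and 4.

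Of 22 other fetal, oncofetal and hepatoblast genes tested, 5 were called higher and 0 lower, beside 4.47% and 2.15% of all genes tested. Their median difference was 0.61, beside 0.096 over all genes tested. The list was chosen with earlier results of these data known, so these values are a description. In sign, 16 of the 22 lay above 0. Among the genes below 0, Fabp5 averaged 10.50 in TrxR1/Gsr-null and 11.55 in WT livers, without overlap (2.07-fold, adjusted p = 0.051). Leaving out TrxR1/Gsr-null replicate 2 brought the count of higher calls to 1, and the replicate block gave 7. Leaving out WT replicates 3 and 4 gave 2 higher and 1 lower. Lcn2, a secreted iron-siderophore carrier that is also induced in inflamed liver, was at 10.87, 10.96, 10.29 and 11.80 in TrxR1/Gsr-null replicates 1 to 4, against 6.72, 8.60, 9.01 and 7.09 in WT replicates 1 to 4, and rose 8.73-fold (adjusted p = 0.006). S100a8 of the neutrophil list and Cd14 of the macrophage list were also higher on average, by 2.46-fold and 2.93-fold, without passing the test. Only 5 of the 12 macrophage and Kupffer cell markers tested lay above 0, with a median difference of -0.15. Lcn2 was called in 18 of 19 alternatives, the exception being the comparison within replicates 3 and 4. Cd24a, a surface marker of progenitor and biliary cells, rose 3.11-fold to 6.60 ± 0.16 in TrxR1/Gsr-null livers, against 4.96 ± 0.78 in WT livers (SD, n = 4 each; adjusted p = 0.019), and was not called without TrxR1/Gsr-null replicate 2 or 4 or WT replicate 3. Spink1, a protease inhibitor (2.84-fold, adjusted p = 0.0222), Golm1, a Golgi protein used as a liver tumour marker (2.69-fold, adjusted p = 0.0369), and Epcam, a progenitor and bile duct adhesion protein (1.92-fold, adjusted p = 0.041), were the others called higher. They were called in 11 of 19, 9 of 19 and 9 of 18 alternatives in that order, and leaving out TrxR1/Gsr-null replicate 2 or WT replicate 4, among others, ended each of these calls. Igf2bp3, an oncofetal RNA-binding protein, averaged 5.76 in TrxR1/Gsr-null and 5.52 in WT livers (adjusted p = 0.715), and Igf2bp1 was below the filter.

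Adult hepatocyte genes were called lower in 3 of 21 cases and higher in 0, beside 2.15% and 4.47% of all genes tested. Only 2 of the 21 were above 0 (median difference -0.39). This list too was chosen with earlier results of these data known. Hal, the histidine ammonia-lyase, fell 2.60-fold (adjusted p = 0.00263), Pck1, which controls gluconeogenesis, 2.35-fold (adjusted p = 0.027), and Uox, urate oxidase, 1.95-fold (adjusted p = 0.00885). Ttr, the transthyretin gene, averaged 13.35 in TrxR1/Gsr-null and 13.59 in WT livers (adjusted p = 0.414). Pck1 was called in 13 of 20 alternatives and not without any single one of TrxR1/Gsr-null replicates 1 and 2 and WT replicates 2 and 3, while Hal and Uox missed only within replicates 3 and 4. With the replicate block 4 of these genes were called lower.

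Of 18 regulators of Afp, H19 and Gpc3 and hepatoblast transcription factors tested, limma called 0 in either direction, 4 had an unadjusted p below 0.05, and the median difference was -0.10. The replicate block called 1 lower. Zbtb20, a repressor of Afp in the postnatal liver, was at 9.53, 9.12, 9.50 and 9.34 in TrxR1/Gsr-null replicates 1 to 4, against 8.63, 8.84, 8.81 and 8.04 in WT replicates 1 to 4 (adjusted p = 0.0594). Zfhx3, another repressor of Afp, averaged 5.64 in TrxR1/Gsr-null and 5.26 in WT livers (adjusted p = 0.453). Zhx1, of the zinc fingers and homeoboxes family, averaged 7.61 in TrxR1/Gsr-null and 7.36 in WT livers (adjusted p = 0.638). These 3 were higher on average, but only 8 of the 18 lay above 0. Foxa3 averaged 7.69 in TrxR1/Gsr-null and 8.84 in WT livers, without overlap (adjusted p = 0.0676). Tbx3 averaged 5.10 in TrxR1/Gsr-null and 5.98 in WT livers, with overlap (adjusted p = 0.0625). Zhx2, which represses Afp, H19 and Gpc3 in adult mouse liver, was not analysed here. Notch genes, to which the ligand-like Dlk1 relates, had 0 calls among 10 tested and 0 with an unadjusted p below 0.05, with a median difference of -0.16.

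The same null animal was highest among the null livers for all 7 genes, while the highest WT animal differed between genes. TrxR1/Gsr-null replicate 4 had the highest null value of all 7 genes at their brightest probe sets, beside 16 of 34 other tested genes on the imprinted and fetal lists and 25.1% of all genes tested. Igf2 and Dlk1 were below the low-value limit in all null livers, and for Afp replicate 4 was close to replicate 1 (8.83 and 8.78). Among WT livers replicate 1 was highest for Afp, Bex1, Igf2 and the H19 and Mir675 probe set, and replicate 4 for Ly6d, Gpc3 and Dlk1. WT replicate 1 was also highest among WT livers for 16 of the same 34 list genes and for 15 of 18 proliferation genes, beside 37.4% of all genes tested. Mki67, a marker of cycling cells, stood at 6.85, 7.13, 7.53 and 7.43 in TrxR1/Gsr-null replicates 1 to 4, against 8.43, 5.33, 4.24 and 5.38 in WT replicates 1 to 4. The part of proliferating cells in the values of WT replicate 1 was not tested.

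Of 18 proliferation genes tested, 1 was called higher, a share near the 4.47% of all genes tested. It was Rrm2, a subunit of ribonucleotide reductase (3.21-fold, adjusted p = 0.0399). In sign, 15 of the 18 lay above 0, as did 4526 of all 7534 genes tested (median differences of 0.65 and 0.096). Leaving out WT replicate 1 gave 6 calls, and leaving out any single other array gave 0.

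Markers of other cell types were set beside the fetal genes. Over all genes tested, 4.47% were called higher and 2.15% lower. Of 6 erythroid markers tested, present in fetal liver as a blood-forming organ, 1 was called higher, Tfrc, the transferrin receptor that hepatocytes express as well (9.96-fold, adjusted p = 0.000832). Without Tfrc the log2 of the summed level of 12 erythroid markers ranged from 8.09 to 9.22 in TrxR1/Gsr-null and from 7.81 to 8.93 in WT livers, and Gata1 averaged 2.38 in TrxR1/Gsr-null and 2.32 in WT livers. Of 10 bile duct markers 4 were tested and Epcam was called higher. Their summed level ranged from 7.98 to 8.54 in TrxR1/Gsr-null and from 7.38 to 8.63 in WT livers, and Krt19, a keratin of bile ducts, averaged 3.11 in TrxR1/Gsr-null and 2.87 in WT livers. Stellate cell and fibroblast markers had 0 of 12 called higher and 1 lower, the smooth muscle gene Tagln, which was called in 11 of 19 alternatives and not when any single array other than WT replicate 4 was left out. In either direction 0 of 12 macrophage and Kupffer cell markers, 0 of 12 endothelial, 0 of 3 neutrophil, 0 of 1 mesothelial and 0 of 1 T and NK cell markers were called, and 5, 2, 2, 0 and 1 of them had an unadjusted p below 0.05. The replicate block called 1 macrophage marker higher and 1 lower, 1 neutrophil marker higher and 1 endothelial marker lower. S100a8, a calcium-binding protein of neutrophils and monocytes, was at 5.40, 5.57, 5.27 and 5.38 in TrxR1/Gsr-null replicates 1 to 4, against 5.12, 4.13, 4.04 and 3.14 in WT replicates 1 to 4, without overlap (2.46-fold, adjusted p = 0.0541). Its partner S100a9 was 2.20-fold higher on average, with overlap (adjusted p = 0.108), and the median difference of the 3 neutrophil markers was 1.14. The other tested neutrophil marker, Csf3r, averaged 3.47 in TrxR1/Gsr-null and 3.56 in WT livers. The lipopolysaccharide co-receptor Cd14 was at 4.16, 5.37, 4.51 and 6.04 in TrxR1/Gsr-null replicates 1 to 4, against 2.90, 3.96, 3.86 and 3.15 in WT replicates 1 to 4, without overlap (2.93-fold, adjusted p = 0.051). On the macrophage list 5 of the 12 lay above 0, with a median difference of -0.15. Clec4f averaged 8.85 in TrxR1/Gsr-null and 9.33 in WT livers, and Vsig4 9.66 and 10.17, both without overlap. Without WT replicate 1 the count of neutrophil markers called higher was 2. Mpo and Elane, of neutrophil granules, had means of 2.08 to 2.37. The part of these cells in the differences was not tested.

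Likeness of profile was measured as the root mean square difference in log2 units over the 8 arrays, after each gene had its WT mean subtracted. Nearest to Ly6d were Gpx2, a glutathione peroxidase (0.65), Cbr3, a carbonyl reductase (1.30), and Nqo1, a quinone reductase (1.41). Nearest to Bex1 were Nqo1 (0.82), Aox1, an aldehyde oxidase (0.82), and Mgst2, a microsomal glutathione transferase (0.83). Nearest to Afp were Bex4 (0.82), Ptgr1, a prostaglandin reductase (0.85), and Snhg11, a noncoding RNA (0.86), and nearest to Gpc3 the glutathione transferases Gstm4 (0.43) and Gstm3 (0.45) and the epoxide hydrolase Ephx1 (0.47). All 11 of these genes were called higher, which largely follows from their nearness to genes chosen with large rises. Between the 4 tested fetal genes themselves the measure ran from 1.16 for Afp and Bex1 to 3.06 for Gpc3 and Ly6d, and in each case the 3 nearest genes were outside the 4. The measure counts size as well as shape, so genes with a like fold come out near each other.

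**Figure D5:**
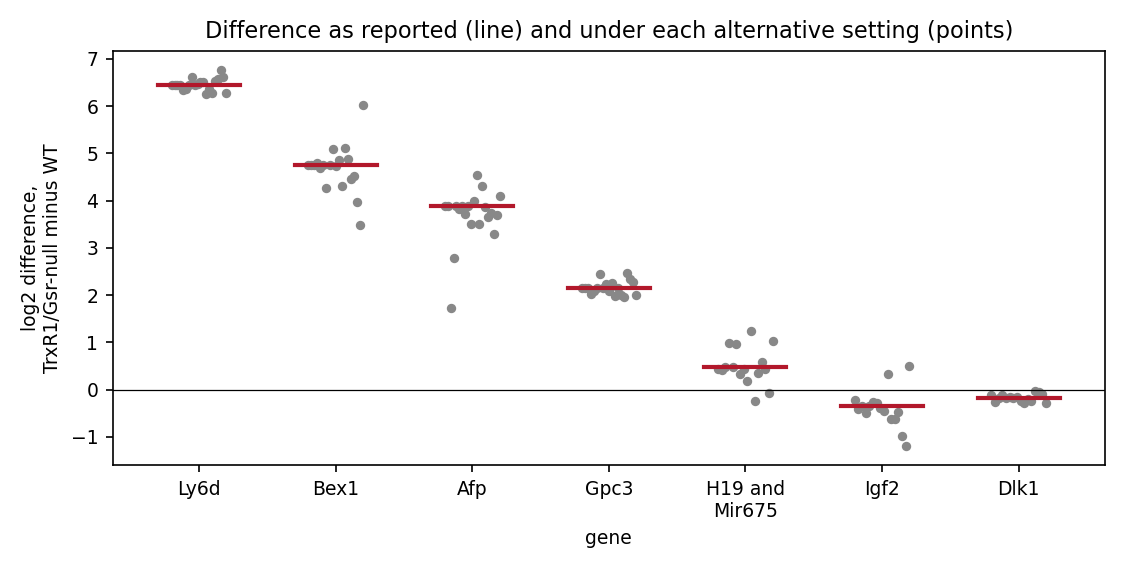
Log2 difference between TrxR1/Gsr-null and WT livers (vertical axis) for each of the 7 genes (horizontal axis), as reported (red line) and under each alternative setting (grey points). Ly6d, Bex1, Afp and Gpc3 stay above 0, Dlk1 stays just below 0, and the H19 and Mir675 and Igf2 probe sets lie on both sides of 0.

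The 4 higher genes kept their sign under every alternative run for them. At their brightest probe sets the genotypes did not overlap, so leaving out arrays could not change the sign. These genes were chosen by the same differences, so the calls given next are a description. Ly6d was called in all 20 of its alternatives, with differences from 6.25 to 6.78, and Bex1 in all 19, from 3.48 to 6.02. Afp was called in 18 of 20, from 1.74 to 4.55, and not without WT replicates 3 and 4 or within replicates 3 and 4 alone. Gpc3 was called in 18 of 19, from 1.95 to 2.48, and not within replicates 3 and 4 alone.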

How the data were processed

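The authors made the values with GCRMA, per the submitters' processing notes, which corrects background, normalizes between arrays and summarizes probe sets. The sources used here do not name its version. The deposited values are log2 expression, a scale read from their range of 0.53 to 14.6, since no label states it. Array medians ran from 3.56 to 3.78. An array has no count depth, and 4 arrays per group limit the precision.

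Symbols were updated through gene identifiers with a RefSeq table (GRCm38.p6; 20351 probe sets matched), used for names and gene order only. Of 22690 probe sets, 64 are controls, 20380 have 1 symbol, 691 several and 1555 none. The brightest single-gene probe set stood for a gene, those ending in _x_at only where no other kind existed, giving 12393 genes. Genes in the lowest 40% by mean were dropped, except those above that limit on 4 or more arrays, leaving 7534. Members below that limit, all members' further probe sets and the H19 and Mir675 probe set come from a fit over all probe sets but the controls. Groups were compared with limma 3.58.1 (R 4.3.3; lmFit, eBayes, two-sided, Benjamini-Hochberg), and called at an adjusted p below 0.05. SEs are limma's moderated ones.

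The members and the gene lists were chosen with earlier results of these data known. Named genes are the members, Txnrd1 and Gsr, up to 4 called genes per list and direction, the first 3 measured genes of lists with fewer than 3 calls, the 3 nearest profiles and the neighbours. Any other gene, and the erythroid sum without Tfrc, was picked after its values were seen.

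Tested on simulated data for TrxR1/Gsr-null over WT (7534 genes, 200 changed), the fit called 41.4% of changes of 1 log2 unit, 87.0% of 2 and 99.6% of 4, with 5.5% false calls. No arrays were duplicates (highest correlation 0.994). Replicate numbers come from the titles, which do not state that mice sharing a number were paired. Deviations from the group means correlated within each of the 4 pairs that share a number (0.21 to 0.37), and the samples were therefore treated as paired in an alternative fit. Alternatives were the filter, probe sets, scaling, prior, array weights, replicate block, left-out arrays and the genotypes within replicates 1 and 2 or 3 and 4.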

Additional observations from a re-analysis of the deposited data

Results flagged for a closer look

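Among the 14 groups of 4 values checked (7 genes at their brightest probe sets, 2 genotypes), a sample stood far from the other 3 in 2 groups by Dixon's test, which flags about 1 group in 20 by chance. Ly6d was 10.14 in TrxR1/Gsr-null replicate 4, and the nearest other null liver was at 9.47. Igf2 was 5.16 in WT replicate 1, and the nearest other WT liver was at 2.70.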

How the results depend on the processing

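The number of the 4 tested fetal genes called higher stayed at 3 or 4 under all alternatives except within replicates 3 and 4, where it was 2 (Ly6d and Bex1). Where it was 3, Gpc3 was not tested with the lowest 60% left out. Bex1 was not tested with _x_at, _s_at and _a_at probe sets left out. Without WT replicates 3 and 4 the Afp call was lost. None was called lower in any alternative. With the replicate block all 4 were called higher, and over all genes there were 454 higher and 240 lower calls, beside 337 and 162 without it. Over all genes, leaving out 1 array gave 196 to 387 higher and 75 to 134 lower, with 211 and 75 after dropping null replicate 1, 196 and 81 after null replicate 2, 210 higher after null replicate 4, 101 lower after WT replicate 2 and 217 and 89 after WT replicate 3. Array weights gave 578 higher and 428 lower, within replicates 3 and 4 there were 162 and 30, 187 were higher without WT replicates 3 and 4, and a further quantile normalization gave 271 lower. That normalization moved the median difference of all genes to -0.01 from 0.096 and the share of higher calls to 53.7% from 67.5%. The direction of the 4 fetal genes did not depend on it. The cause of these shifts was not tested. Values near background, as in WT livers for Ly6d, Bex1, Afp, Gpc3, Gpc1 and Epcam, limit how well a fold is known.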
